A study of Mus musculus with 6 samples.

Results

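Enzymes on the outer face of the cell break released ATP down to adenosine, and related ectoenzymes split NAD. Of the 10 genes of this set, 5 had an array row annotated with a single gene symbol, out of 19938 genes tested. They are Entpd1, Entpd2, Nt5e, Ada and Bst1, each represented by 1 row. The row for the adenosine receptor gene Adora3 is annotated to a second gene as well, and Adora1, Adora2a, Adora2b and Cd38 were not analysed here, so the account covers the enzymes and none of the adenosine receptors. The members were picked by gene name, with earlier results of these data known.

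ATP leaves stressed, dying or signalling cells and acts on P2 receptors until it is hydrolysed. Entpd1 (CD39) removes phosphates from ATP and ADP to leave AMP, Entpd2 acts mainly on ATP, and Nt5e (CD73) turns AMP into adenosine. Ada then deaminates adenosine to inosine, which ends its action on adenosine receptors. Bst1 (CD157) is a membrane-anchored enzyme of the ADP-ribosyl cyclase family that uses NAD and is known in marrow from stromal cells, early B cells and myeloid cells.

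The comparison set Scf-GFP+ bone marrow cells from mice heterozygous for a GFP knock-in at the stem cell factor gene, Kitl, against unselected marrow cells sorted from wild type animals. All mice were young adults on a C57BL/6 background. Each population was hybridised to 3 Affymetrix Mouse Gene ST 1.0 arrays, 6 in all, with amplified RNA from 5000 sorted cells on each array. The Scf-GFP+ cells were sorted in 2 rounds and carried the knock-in, so cell population, genotype and sorting cannot be told apart, and whole marrow is a mixture of blood lineages with few stromal cells. The labels do not say whether the aliquots came from separate animals, so the p-values measure the spread between these aliquots, part of which may be technical. Sex-linked genes, given below, differed among the Scf-GFP+ aliquots. Those aliquots therefore did not all come from the same animal, and their spread may include a sex difference.

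The labelled populations differed in their markers. All 8 perivascular stromal markers on the list were higher in Scf-GFP+ cells, Kitl among them by 5.57 on the log2 scale, and all 7 erythroid markers measured were lower. Scf-GFP+ replicate 1 stood apart. The mean of 12 neutrophil markers was 9.37 on this array, against 5.80 and 5.96 on Scf-GFP+ replicates 2 and 3 and 11.91 to 11.93 in whole marrow. Mpo, Elane and Fcnb had little part in that rise. They stood at 6.57, 5.92 and 6.40 on replicate 1 and at 5.52 to 6.36 on replicates 2 and 3. Xist, the RNA that silences an X chromosome in female cells, was high in Scf-GFP+ replicates 1 and 2 (11.50 and 11.81) and low on the other 4 arrays (4.99 to 5.10). The Y-linked gene Eif2s3y was low in those replicates (4.41 and 3.72) and stood at 7.33 to 8.23 on the other 4 arrays. By these genes Scf-GFP+ replicates 1 and 2 were female, and Scf-GFP+ replicate 3 and all whole marrow arrays were male. Sex was therefore not balanced between the groups.

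Of the 5 measured genes, Bst1 and Entpd1 were called lower in Scf-GFP+ cells and none was called higher. A gene was called where limma's Benjamini-Hochberg adjusted p over all genes was below 0.05 and the change reached 2-fold. The 2 calls in 5 stand beside 16.9% of all genes called, 7.89% lower and 9.01% higher. Nt5e, Entpd2 and Ada were not called, and Entpd2, which was higher, missed only the 2-fold limit. The median difference of the 5 genes was -0.33, beside -0.08 over all genes tested, and the single differences ran from -3.19 to 0.52. Groups of arrays did not overlap for Bst1, Entpd1 and Entpd2, which is 3 of 5 genes beside 45.4% of all genes, 26.4% lower and 19.0% higher.

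**Figure D1:**
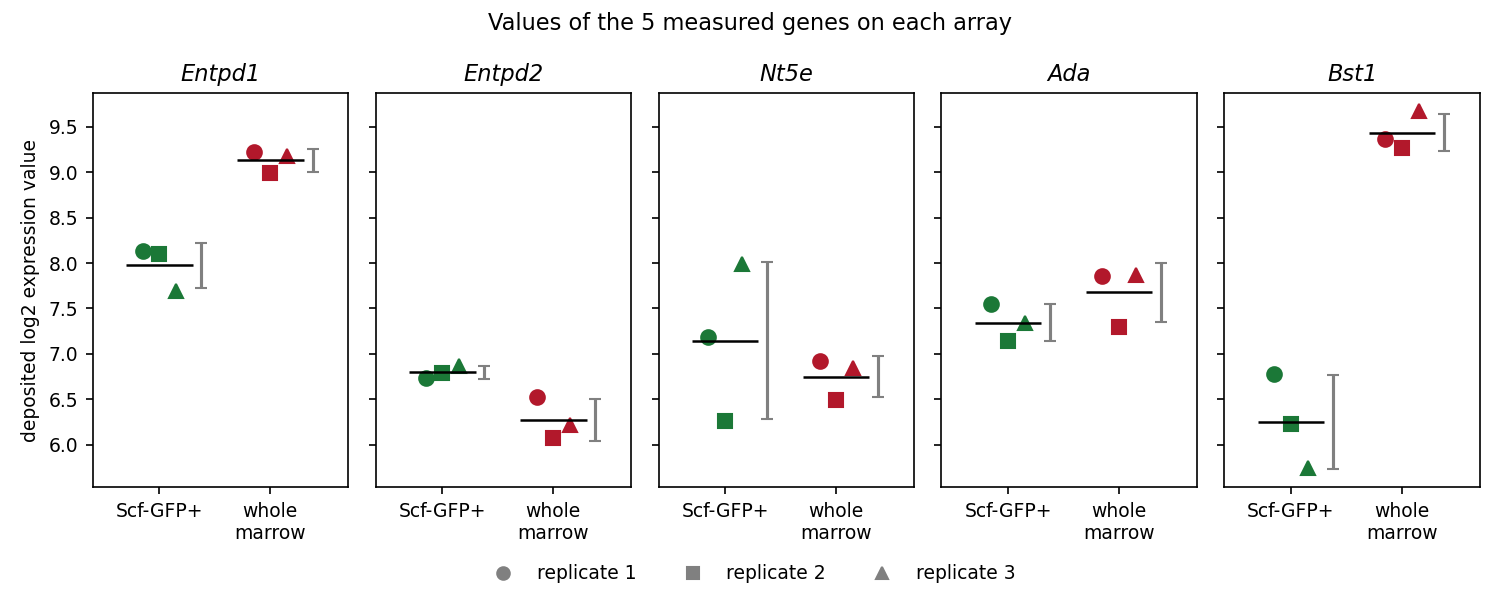
Deposited log2 expression values (vertical axis) of the 5 measured genes on each of the 6 arrays. Points are arrays, with the symbol giving the replicate, black lines are group means, and grey bars span 1 SD on either side of the mean (n = 3). Levels of different genes are not comparable on this axis. The Scf-GFP+ arrays lie below all whole marrow arrays for Entpd1 and Bst1 and are widely spread for Nt5e.

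Entpd1, which starts the hydrolysis of extracellular ATP, has 2 starts in RefSeq (GRCm38.p6) that lie 47404 bases apart on chromosome 19. The array row does not separate transcripts by start. The 250 bases before each start are shown because Entpd1 is the one changed gene with an entry in the promoter table. Bst1 has no entry. The capitals mark GAGGAA, the core of the binding site of Spi1, a blood-lineage transcription factor.
Entpd1, upstream start, chr19:40612116-40612365, plus strand: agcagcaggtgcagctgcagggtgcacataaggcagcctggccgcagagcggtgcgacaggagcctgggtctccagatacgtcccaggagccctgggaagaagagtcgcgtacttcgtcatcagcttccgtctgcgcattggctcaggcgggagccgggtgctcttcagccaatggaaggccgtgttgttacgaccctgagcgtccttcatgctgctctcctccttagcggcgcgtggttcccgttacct
Entpd1, downstream start, chr19:40659520-40659769, plus strand: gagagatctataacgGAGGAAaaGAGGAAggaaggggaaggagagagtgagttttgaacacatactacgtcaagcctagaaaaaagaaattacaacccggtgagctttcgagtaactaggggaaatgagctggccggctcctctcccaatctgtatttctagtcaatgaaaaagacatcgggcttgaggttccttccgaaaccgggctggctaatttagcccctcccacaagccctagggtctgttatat
The downstream window held GAGGAA 2 times, at 235 to 230 and at 227 to 222 bases before the start, and the upstream window held none on either strand. Of 32851 promoter windows of this length, 23.3% held the motif on either strand. The windows also differed in base composition, with 62.4% G and C upstream and 47.2% downstream. A search for the GC box GGGCGG on both strands, overlapping matches counted, found none in the Entpd1 windows, 4 in the window of Nt5e, 2 in that of Entpd2 and 1 in that of Ada, and 32.7% of all windows held at least 1. The TATA box TATAAA was in none of these 5 windows and in 12.4% of all windows. These matches describe the letters of the windows alone.

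In Scf-GFP+ replicates 1, 2 and 3 Entpd1 stood at 8.13, 8.10 and 7.69, and in those of whole marrow at 9.22, 8.99 and 9.18. Every Scf-GFP+ array lay below every whole marrow array, with a gap of 0.87 between the nearest arrays. The means were 7.97 ± 0.25 (SD, n = 3) and 9.13 ± 0.12. The difference of -1.16 ± 0.15 SE, a 2.23-fold lower level, passed the test (limma adjusted p = 0.00179). Its 95% interval of -1.52 to -0.79 includes a difference of 2-fold. In size it exceeded the differences of 84.6% of genes. Entpd1 is known from endothelial cells and from several blood cells. The mean of 8 endothelial markers was 7.04, 6.91 and 6.48 in Scf-GFP+ replicates 1, 2 and 3 and 6.36 to 6.53 in whole marrow, with 2 of the 8 called higher and 1 lower. Entpd1 and the endothelial mean were each lowest in replicate 3 within the Scf-GFP+ group. So were the stromal (11.20), monocyte and macrophage (5.63) and erythroid (5.97) means, and replicate 3 was the only male Scf-GFP+ array by Xist and Eif2s3y. The means of every blood cell list other than plasma cells were lower on all Scf-GFP+ arrays than on all whole marrow arrays. The part of endothelial or blood cells in the Entpd1 level was not tested. Without Scf-GFP+ replicate 3 the difference was -1.02. In bulk samples, fewer cells of a type and less RNA per cell cannot be told apart.

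Entpd2, the paralogue that favours ATP, measured 6.73, 6.79 and 6.87 in Scf-GFP+ cells and 6.53, 6.07 and 6.22 in whole marrow. The groups did not overlap, but the nearest arrays were only 0.20 apart. The difference of 0.52 ± 0.14 SE (1.44-fold, 95% interval 0.18 to 0.86) had an adjusted p of 0.0363 from limma and fell short of 2-fold, so Entpd2 was not called. At any fold, 27.0% of genes had an adjusted p below 0.05. The adjusted p rose to between 0.0726 and 0.105 when any single array other than whole marrow replicate 1 was left out. It was 0.0726, 0.0879 and 0.0969 without Scf-GFP+ replicates 1, 2 and 3, and 0.0956 and 0.105 without whole marrow replicates 2 and 3. Entpd2 was the least variable of the 5 genes in Scf-GFP+ cells, with an SD of 0.07 against 0.24 in whole marrow.

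Nt5e, which makes adenosine from AMP, measured 7.19, 6.26 and 7.99 in Scf-GFP+ cells and 6.92, 6.49 and 6.84 in whole marrow. The Scf-GFP+ arrays spanned the whole marrow range on either side, with replicate 2 below it and replicates 1 and 3 above. They differed among themselves by up to 1.74, or 3.33-fold, while the whole marrow arrays lay within 0.43. The SD of 0.87 in Scf-GFP+ cells exceeded that of 98.3% of genes in the same arrays. The difference between the groups, 0.39 ± 0.41 SE, did not pass the test (limma adjusted p = 0.530). Its 95% interval runs from -0.59 to 1.38, which holds no difference as well as one beyond 2-fold higher. The sign rested on Scf-GFP+ replicate 3, without which the difference was -0.03, and without Scf-GFP+ replicate 2 it was 0.84. With a term for the Xist level, which leaves Scf-GFP+ replicate 3 alone against whole marrow, Nt5e differed by 1.24 ± 0.38 SE (adjusted p = 0.0876). That term was added after seeing the data.

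Ada, which deaminates adenosine, measured 7.55, 7.14 and 7.34 in Scf-GFP+ cells and 7.86, 7.30 and 7.87 in whole marrow. The groups overlapped, since whole marrow replicate 2 lay below 2 of the Scf-GFP+ arrays. The difference of -0.33 ± 0.19 SE did not pass the test (limma adjusted p = 0.260), and its 95% interval of -0.80 to 0.13 lies within 2-fold on either side of no difference. Without whole marrow replicate 2 the difference was -0.52 (adjusted p = 0.0683).

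**Figure D2:**
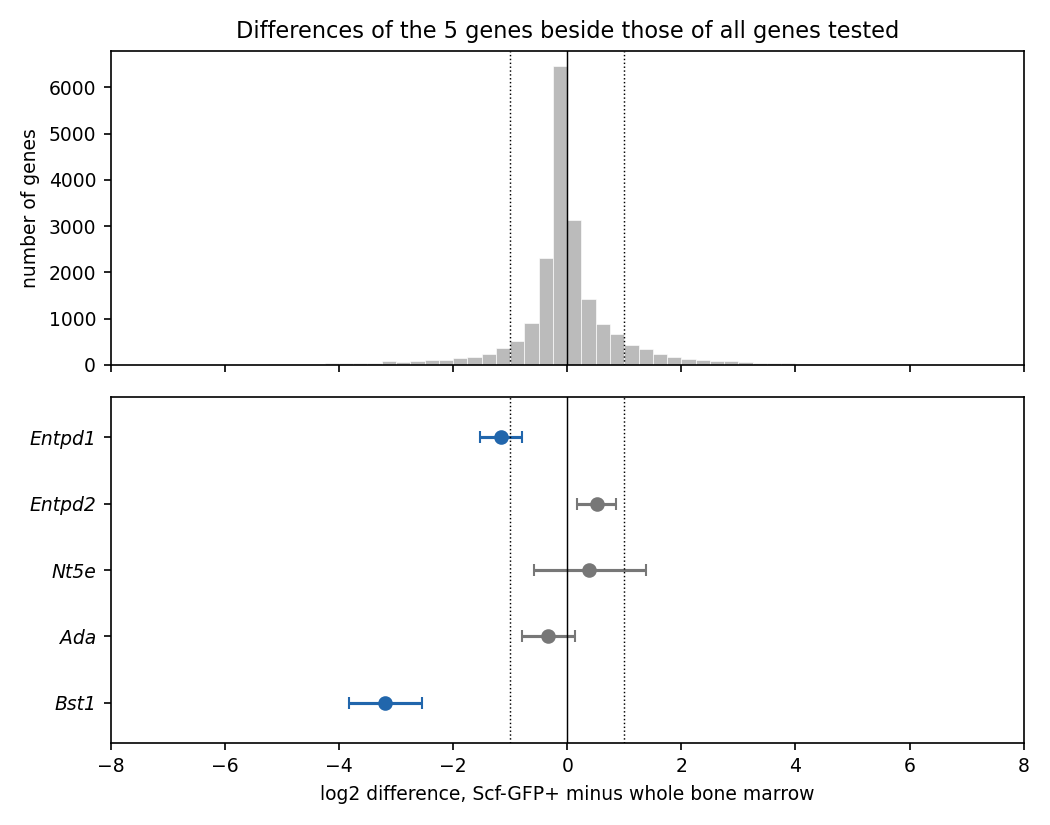
Log2 differences, Scf-GFP+ minus whole bone marrow (horizontal axis). The upper panel counts all 19938 genes tested in bins along that axis. The lower panel gives the 5 genes with 95% intervals from limma, called genes in blue and the others in grey, and dotted lines mark 2-fold. Bst1 lies at -3.19, far from the bulk of genes, and the interval of Nt5e, from -0.59 to 1.38, is the widest of the 5.

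Bst1, the NAD ectoenzyme, had the largest difference of the 5 genes. It measured 6.78, 6.23 and 5.74 in Scf-GFP+ cells and 9.37, 9.27 and 9.67 in whole marrow. The nearest arrays of the groups were 2.49 apart. The means were 6.25 ± 0.52 (SD, n = 3) and 9.44 ± 0.21, a 9.10-fold lower level in Scf-GFP+ cells (-3.19 ± 0.27 SE, limma adjusted p = 0.00022). In size this difference exceeded those of 96.8% of genes. The Scf-GFP+ arrays varied over 1.04, and their SD was above that of 92.3% of genes. The Scf-GFP+ array with the highest Bst1 value was replicate 1, the one with the raised neutrophil mean, to which not all markers of that list contributed. Between Scf-GFP+ replicates 2 and 3 the order was the opposite, with Bst1 at 6.23 and 5.74 and the neutrophil mean at 5.80 and 5.96. Of the 12 neutrophil markers, 10 were called lower over all arrays. Without replicate 1 the difference was -3.45 ± 0.21 SE (adjusted p = 0.000177), so it was as large without that array. Of 9 B cell markers measured, 8 were called lower and 1, Ebf1, was called higher (2.18 ± 0.19 SE). The mean of all 9 was 6.41 to 6.66 in Scf-GFP+ cells and 9.40 to 10.03 in whole marrow. Of 9 monocyte and macrophage markers, 5 were called lower, with means of 5.63 to 5.84 and 7.40 to 7.59. The part of these cells in the Bst1 level of whole marrow was not tested.

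**Figure D3:**
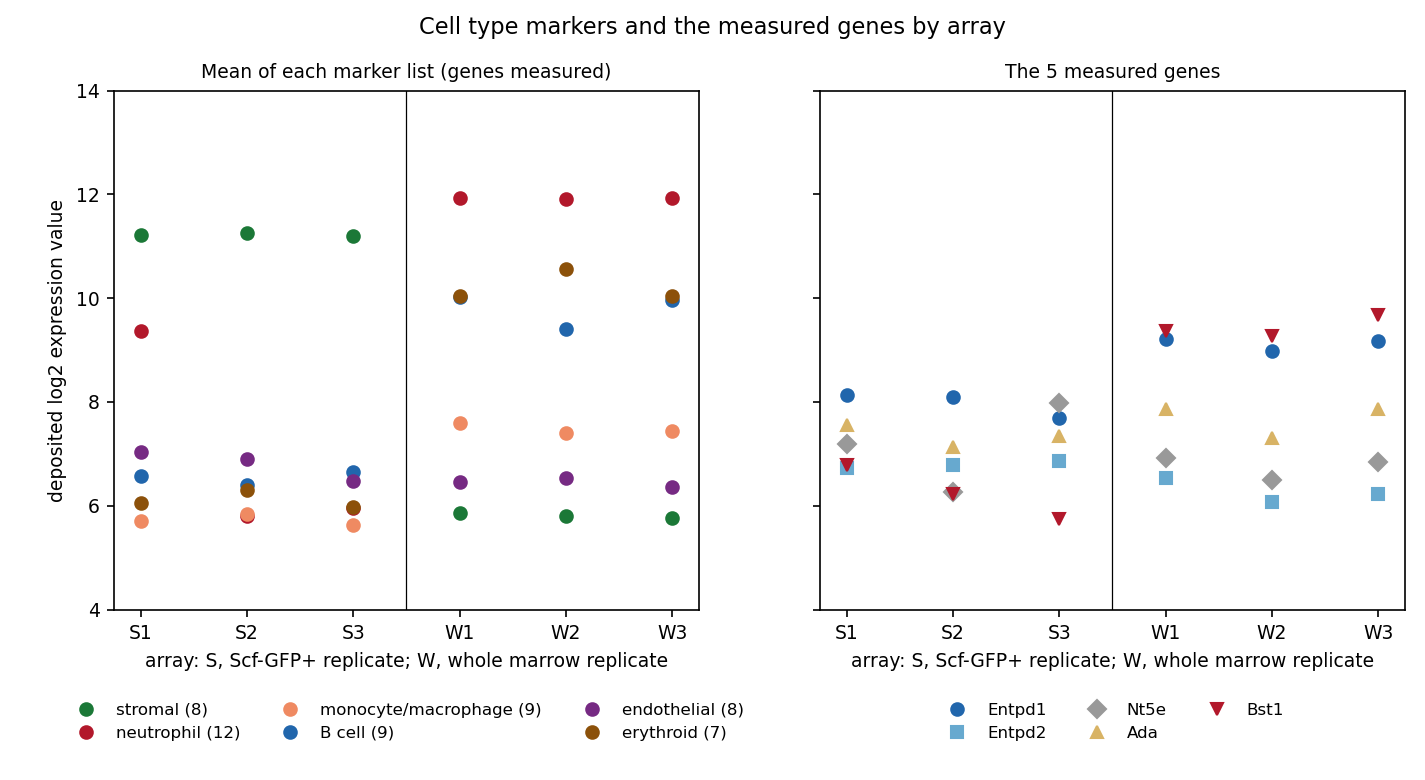
Mean log2 values of the cell type marker lists (left, with the number of genes measured) and log2 values of the 5 genes (right) on each array. S1 to S3 are the Scf-GFP+ replicates and W1 to W3 those of whole marrow, and levels of different genes are not comparable. The neutrophil mean is 9.37 on S1 and 5.80 and 5.96 on S2 and S3, while the stromal mean is 11.20 to 11.26 on all of them.

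The genes closest in pattern to the called members were found by centring each gene on its own mean over the 6 arrays and taking the root mean square distance. For Bst1 they were Fmnl1, an actin-organising formin, at a distance of 0.0546, Plcb2, a phospholipase C of blood cells, at 0.141 and Cdc6, a replication licensing factor, at 0.152. Their differences were -3.09, -3.12 and -3.24. For Entpd1 they were the transcription factor genes Klf4 at 0.0541 and Nfyb at 0.0881, followed by Abt1 at 0.103. Their differences were -1.14, -1.01 and -1.28. A distance over 6 arrays in 2 groups mostly measures a like difference between the groups.

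Genes around these enzymes moved in either direction. Of 77 measured genes in 7 lists, 13 passed as higher and 12 as lower, beside 9.01% and 7.89% of all genes. Their median difference was -0.01, and that of all genes -0.08. A list of other genes from enzyme families that split extracellular nucleotides lacked a row for Enpp1 and Enpp2, and not every enzyme on it need act on these nucleotides. Of its 9 measured genes, 4 were higher and 1 lower, beside the same shares of all genes. These were Enpp3, a nucleotide pyrophosphatase, at 4.05 ± 0.19 SE, Enpp5 at 3.46 ± 0.28, Enpp4, which hydrolyses diadenosine polyphosphates, at 2.76 ± 0.40, and alkaline phosphatase, Alpl, which can dephosphorylate AMP, at 3.45. Acpp, an acid phosphatase that also acts on AMP, was lower by -1.31 ± 0.25. Neither Entpd3 (-0.23) nor Entpd8 (0.15), the paralogues that share the plasma membrane with Entpd1, passed the test. Of the 4 Entpd genes that act in internal membranes or are secreted, 1 was lower, beside 7.89% of all genes. It was Entpd5, at -1.19 ± 0.34. That call was lost without Scf-GFP+ replicate 2, where the difference shrank to -0.81. It was also lost at differences of like size without Scf-GFP+ replicate 3 (-1.27, adjusted p = 0.0796) or whole marrow replicate 1 (-1.30, adjusted p = 0.0805), 2 (-1.18, adjusted p = 0.107) or 3 (-1.10, adjusted p = 0.130). With the replicate block Entpd5 differed by -1.19 (adjusted p = 0.0608), and with all rows of the table tested the adjusted p was 0.0525. Entpd4 differed by 0.81 and was called higher without Scf-GFP+ replicate 2 (1.13, adjusted p = 0.0273).

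Of 16 genes measured that carry, make or use adenosine or related nucleotides, 4 were lower and 1 higher, beside 7.89% and 9.01% of all genes, so the single higher call is near the background. Those lower were the pyrimidine nucleotidase Nt5c3 (-2.47 ± 0.29 SE), Dpp4 (-2.46 ± 0.15), a peptidase that binds adenosine deaminase in humans, the sodium-coupled nucleoside transporter Slc28a2 (-1.98 ± 0.12) and purine nucleoside phosphorylase, Pnp (-1.41 ± 0.20), which acts on the inosine that Ada makes. The equilibrative transporter Slc29a1 was called higher at 1.00 ± 0.22, on the 2-fold line. It fell under 2-fold or missed the test when Scf-GFP+ replicate 2 (0.90) or 3 (0.89) was left out and without whole marrow replicate 1 or 2 (0.93 in each case). Of 12 NAD enzymes beside Bst1, 1 was lower, beside 7.89% of all genes, so this count is near the background. The call was Nmnat3, which makes NAD in mitochondria, at -1.08 ± 0.19. It came to -0.98 and -0.97, under 2-fold, without whole marrow replicate 2 or 3. The ADP-ribosyltransferase gene Art1 differed by -0.18 and was not called.

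Of 15 receptors with P2 names, most of which bind extracellular nucleotides, 3 were higher and 4 lower, beside 9.01% and 7.89% of all genes. P2ry14, a receptor for UDP-glucose, was higher by 4.40 ± 0.18 SE, the ATP-gated channel P2rx4 by 3.12 ± 0.45 and the ADP receptor P2ry1 by 1.26 ± 0.16. P2rx3 (-2.74 ± 0.32; -1.89 with the mean of its rows), P2ry13 (-1.74 ± 0.32), P2ry10 (-1.63 ± 0.36), whose known ligands are lysophospholipids, and P2rx1 (-1.35 ± 0.20) were lower. Of 7 genes for ATP release, 1 was called higher, beside 9.01% of all genes. It was the connexin gene Gja1 (4.51 ± 0.22), and the pannexin genes Panx1 and Panx2 differed by -0.36 and -0.23 without a call. Adenosine receptors raise or lower cyclic AMP through G protein alpha subunits and adenylyl cyclases. Of 14 such genes measured, 4 were higher and 1 lower, beside 9.01% and 7.89% of all genes. The listed alpha subunit gene Gnas lacked a row, so its level is not known here. Adcy2 (4.80), Gnai1 (4.25), Gnao1 (3.72) and Adcy4 (2.01) were higher and Adcy7, a cyclase of blood cells, was lower (-1.23). The adenosine receptors themselves are not part of these counts.

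**Figure D4:**
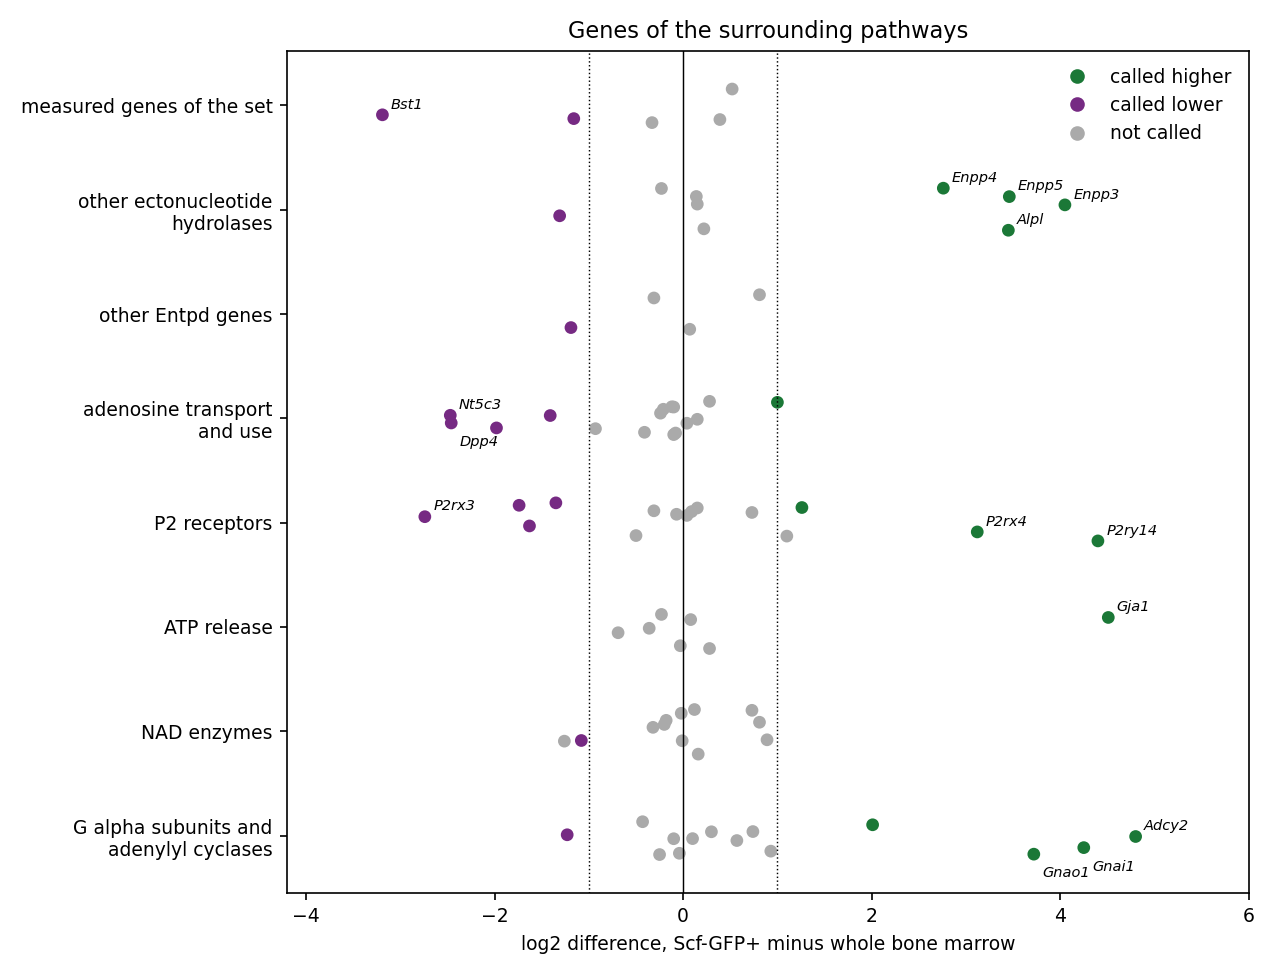
Log2 differences, Scf-GFP+ minus whole bone marrow (horizontal axis), of the 5 genes and of 77 genes in 7 surrounding lists. Each point is a gene, coloured by its call, with vertical scatter inside a row only for legibility, and dotted lines mark 2-fold. Bst1 and Entpd1 are the called genes of the top row, and the largest differences among the lists are those of Adcy2 (4.80) and Gja1 (4.51).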

How the data were processed

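The authors deposited 1 table of log2 expression values for the 6 arrays, for which the submitters' processing notes list RMA, affy and limma, with no version and no order. RMA includes background correction, quantile equalisation across arrays and a summary over probes. The array medians lay between 6.56 and 6.63, and the values were used as deposited. The annotation's genome build is not given in the sources used here. Of 28940 rows, 21789 had 1 gene symbol, updated through Entrez identifiers with a RefSeq table (GRCm38.p6), and the highest-mean row stood for a gene, which left 19938 genes. Groups were compared with limma 3.58.1 (lmFit, eBayes) in R 4.3.3 without covariates, after a test on simulated data. No detection calls come with RMA, so low values do not show absence, and the number of arrays limits the precision. Promoter windows come from RefSeq. All members, 77 measured pathway genes and the markers were named by fixed lists, with up to 4 called genes per list and direction and up to 2 others named, and 3 most similar genes per called member. Members and lists were chosen with earlier results of these data known. Alternatives left out each array, added a replicate block, a variance trend or array weights, left out the dimmest 30% of genes, averaged rows, centred arrays, tested all rows, dropped the fold requirement and added a term for Xist.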

Additional observations from a re-analysis of the deposited data

How the results depend on the processing

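Bst1 and Entpd1 were called lower under all 15 alternatives, with differences of -3.69 to -2.93 and -1.44 to -1.02. Leaving out single arrays gave -3.45 to -2.93 for Bst1, -1.24 to -1.02 for Entpd1, 0.42 to 0.65 for Entpd2, -0.52 to -0.23 for Ada and -0.03 to 0.84 for Nt5e, which changed sign without Scf-GFP+ replicate 3. Slc29a2 (-0.03), Slc29a3 (-0.08) and P2rx5 (-0.05) also changed sign without that array, and Slc29a3 (-0.02) without whole marrow replicate 2, within leave-one-out ranges of -0.03 to 0.11, -0.08 to 0.36 and -0.05 to 0.21 for the 3 genes. None of these was called with all arrays, and each rests on the array left out. Without the fold requirement, 1 member (Entpd2, 0.52) was called higher, and 2758 genes were called higher and 2635 lower, against 1796 and 1574 with it. With the term for the Xist level, 7 pathway genes were called lower in place of 12, and 20 of the 25 called pathway genes kept the call. Acpp (-1.25 ± 0.38 SE, adjusted p = 0.0885), P2ry13 (-1.72 ± 0.48, 0.0677), P2ry10 (-1.67 ± 0.55, 0.107), Nmnat3 (-1 ± 0.28, 0.0692) and Entpd5 (-1.05 ± 0.52, 0.267) lost it at differences close to those without the term, since the term leaves 1 Scf-GFP+ array against whole marrow and raises the SE. With the replicate block, Entpd5 lost its call (-1.19, adjusted p = 0.0608), Bst1 differed by -3.19 (adjusted p = 0.00203) and Entpd1 by -1.16 (adjusted p = 0.00833), while 1775 genes were called higher and 1563 lower. The deviations of same-numbered arrays of the groups correlated by -0.0630, -0.0218 and 0.0662 for replicates 1, 2 and 3. Only the arrays of replicate 3 correlated best with their own number. With 3 arrays per group, these values cannot show whether same-numbered arrays shared more than a number. Of 580 recomputed values of 39 named pathway genes, 554 kept direction and call, 20 lost the call, 2 gained it and 4 changed sign.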
